A study of Mus musculus with 12 samples.

Results

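The interaction between parental origin and germ cell induction was described for DNA methylation, that is, whether the step from mouse embryonic stem cells to primordial germ cell-like cells (PGCLCs) changed methylation by another amount in cells without a father than in cells from a fertilized embryo. For each annotated feature, the interaction was the change on induction in the parthenogenetic cells (pESC-PGCLC minus pESC) less the change in the biparental cells (ESC-PGCLC minus ESC). It was computed for the 136848 features that had a level in all 8 libraries of these groups, of 176831 features with a level in at least 1 of the 12 libraries of the series. A negative value says that the biparental cells gained more, or lost less, and equally that a gap of pESCs over ESCs shrank or turned round.

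The 4 groups were female ESCs, pESCs, ESC-PGCLCs and pESC-PGCLCs, with 2 libraries in each, all of C57BL6 background. pESCs are stem cell lines from oocytes that were activated without sperm, and both lines were derived on mouse embryonic fibroblast feeders. PGCLCs were made by 2 days in Activin A, bFGF and 1% KSR, which give epiblast-like cells (not analysed here), and then 4 days in BMP4, SCF, EGF and LIF. They were sorted as cells double positive for integrin-β3 (CD61) and SSEA1. Libraries of E9.5 and E12.5 PGCs, 2 of each, served only as a readout that the interaction does not use. The study calls the libraries of a group biological replicates, without saying in the sources used here whether they came from separate lines or from cultures of 1 line, so p-values measure the spread between these libraries. Expression data of the study were not used here, so the cell types could be checked only by methylation.

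The assay was reduced representation bisulfite sequencing (RRBS). Digestion with MspI, which cuts at CCGG, selects CpG-rich fragments, and bisulfite turns unmethylated cytosine into uracil. The level of a feature is the share of its CG calls that were methylated and is printed in percent, and differences are in percentage points. Features belong to 8 classes that overlap, namely CpG islands, island shores, promoters, 5' UTRs, exons, introns, 3' UTRs and repeats. Gene parts have 1 value per gene, so the coordinates given for them are those of the gene, and repeats are pooled by element and consensus segment and have no position. The depth behind each level is unknown.

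Genomic imprinting marks a small number of loci in the egg or in the sperm with DNA methylation that is kept on that parental copy after fertilization, so that 1 copy is silent. Oocyte-methylated loci are methylated on the maternal copy, and a parthenogenetic embryo has a pair of maternal copies. Primordial germ cells (PGCs), from which the gametes form, erase imprints along with most other methylation before the marks of the next generation are set. Naive stem cells kept in inhibitors of MEK and GSK3 are known for low methylation, and the passage through epiblast-like cells for a gain of it. The study kept its lines in serum and LIF, and before induction for some passages in inhibitor medium with a lowered dose of PD0325901. Its methods do not say from which medium the sequenced stem cells came.

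Sequences from 5 of the 6 loci with a called negative interaction and a position are shown first, because the results turn on these imprinted regions. The Zrsr1 island held no stretch of 120 bases free of annotated exons, so none of it could be shown. Printed is the stretch of 120 bases with the most CpG sites outside annotated exons, on the + strand of GRCm38, with CpG sites in capitals. The measured level is that of the whole island or shore, not of the stretch. The stretches lie in Airn and Igf2r at chr17:12741708-12741827, in Mest at chr6:30739236-30739355, in Plagl1 at chr10:13091025-13091144, in Peg10 at chr6:4748241-4748360 and in Grb10 at chr11:12026377-12026496, and they hold 13, 7, 13, 16 and 28 CpG sites.
Airn and Igf2r island: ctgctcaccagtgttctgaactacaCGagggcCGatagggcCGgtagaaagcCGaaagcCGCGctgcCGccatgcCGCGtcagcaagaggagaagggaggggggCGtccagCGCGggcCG
Mest shore: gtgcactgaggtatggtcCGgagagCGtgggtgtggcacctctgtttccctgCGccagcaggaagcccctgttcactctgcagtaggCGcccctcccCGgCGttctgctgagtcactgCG
Plagl1 island: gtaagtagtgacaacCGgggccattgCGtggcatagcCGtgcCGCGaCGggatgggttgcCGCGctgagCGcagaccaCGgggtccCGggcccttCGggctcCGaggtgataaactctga
Peg10 island: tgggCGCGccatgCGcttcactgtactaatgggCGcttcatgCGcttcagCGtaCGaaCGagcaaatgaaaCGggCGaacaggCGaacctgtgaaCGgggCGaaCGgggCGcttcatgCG
Grb10 island: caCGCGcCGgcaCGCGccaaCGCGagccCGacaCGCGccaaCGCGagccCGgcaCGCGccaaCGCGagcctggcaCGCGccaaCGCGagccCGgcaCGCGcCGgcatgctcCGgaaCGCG

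The 5 called islands had between 767 and 1204 bases and between 72 and 133 CpG sites, against medians of 614 bases and 63 sites over 13831 islands tested on assembled chromosomes. The hexamer TGCCGC, the core of the motif that the imprint-protecting factor ZFP57 binds when it is methylated, was counted on both strands. It occurred 7 times in the Airn island, 6 times in the Plagl1 island, 4 times in the Grb10 island, 2 times in the Peg10 island and not in the Zrsr1 island. Of all tested islands, 53.6% held it, and 4.75% held 4 or more copies. A match is a run of letters and not a measured binding site.

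Over all features, induction raised methylation from either origin, and the parthenogenetic cells gained less. The library means were 26.3% and 21.6% in ESCs, 24.3% and 23.5% in pESCs, 29.7% and 29.6% in the ESC-PGCLC libraries and 27.8% and 27.4% in the pESC-PGCLC libraries. The 2 ESC libraries stood on either side of the pESC libraries, whereas both pESC-PGCLC libraries lay below both ESC-PGCLC libraries. The mean rose by 5.75 points from ESCs and by 3.67 points from pESCs, which gave an interaction of -2.08 ± 2.40 points (SE from the libraries, n = 2 per group). It was not larger than the spread between libraries (two-sided exact permutation test over 36 assignments of origin, p = 0.5; the smallest p this design allows is 0.0556). The ESC libraries were the least alike of any group: they differed by at least 10 points at 24.9% of features, compared with 7.07% for pESCs, 4.59% for ESC-PGCLCs and 3.46% for pESC-PGCLCs. Without ESC replicate 1 the global interaction was -4.43 points, and without ESC replicate 2 it turned to 0.270 points.

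The gap between origins was thus close to 0 in stem cells, at -0.0130 points, and was -2.09 points in PGCLCs. Most features moved little, and on the level scale to the negative side. The median interaction was -0.891 points, 68.6% of features were below 0, and the central 90% lay between -10.4 and 3.94 points. On the log2 odds scale the median was -0.15 with 67.6% below 0, and with each library centred on its median it turned to 0.10 with 37.1% below 0. An interaction of 10 points or more, without a test, was negative at 7566 features (5.53%) and positive at 1847 (1.35%). At 30 points or more the counts were 230 and 110, and at 50 points or more they were 10 and 10.

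All 8 classes had a negative mean interaction. It was smallest in CpG islands (-0.404 ± 0.241 points, SE) and 5' UTRs (-0.399 ± 0.275), the classes with the lowest methylation. It was -1.47 ± 1.56 in shores, -1.51 ± 1.42 in promoters, -2.33 ± 2.28 in exons, -2.80 ± 2.67 in introns, -3.06 ± 4.40 in repeats and -3.99 ± 5.72 in 3' UTRs. The exact permutation test gave an adjusted p of 0.556 for each of the 8 classes. It cannot decide for any class, because the smallest unadjusted p this design allows, 0.0556, is already above the threshold of 0.05. Without ESC replicate 2 the sign turned in shores, repeats and 3' UTRs, to 0.0753, 1.23 and 1.53 points. The sign also depended on the scale: the median log2 odds of the libraries shifted by an interaction of -0.25, and relative to that shift the median interaction was above 0 in every class but 3' UTRs, from 0.03 in introns to 0.23 in CpG islands, and -0.01 in 3' UTRs.

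On the level scale, the median interaction was more negative the higher the level in E9.5 PGCs, a readout outside the comparison. Features at 0 to 10% in E9.5 PGCs had a median interaction of -0.0486 points and 53.3% of them were below 0. Those at 10 to 30% had a median of -1.38, those at 30 to 50% of -3.37, those at 50 to 70% of -3.61, those at 70 to 90% of -4.24 and those at 90 to 100% of -4.47 points. In the bin from 70 to 90%, the median gain was 9.35 points from ESCs and 5.32 points from pESCs. The bins share the 8 libraries and are given as a description. They were not repeated on the log2 odds scale or with a library left out. The global interaction turned to 0.270 points without ESC replicate 2, and the class signs depended on the scale.

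**Figure D1:**
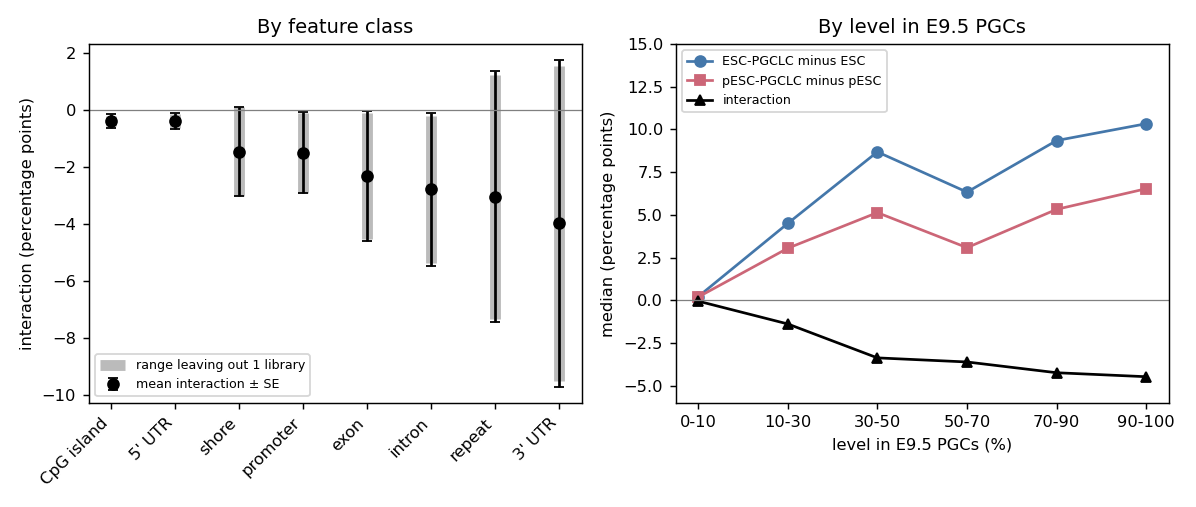
Left, mean interaction in percentage points by feature class (black points, bars are SE from 2 libraries per group) with the range when any 1 of the 8 libraries is left out (grey); right, median change on induction from ESCs (blue circles) and pESCs (red squares) and median interaction (black triangles), in percentage points, by the level in E9.5 PGCs. The class means lie between -0.399 and -3.99 points with errors that reach past 0 in shores, repeats and 3' UTRs, and the median interaction falls from -0.0486 in the lowest bin to -4.47 in the highest.

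Feature by feature, the interaction was called at 50 of 136848 features (0.0365%), 25 negative (0.0183%) and 25 positive (0.0183%). A feature was called when limma, fitted to log2 odds of the level, gave an adjusted p under 0.05 and the interaction was at least 10 points. At an unadjusted p under 0.05 in limma there were 4053 features, 2800 negative and 1253 positive. That is a smaller share of the features tested than the 0.05 expected without any interaction, so this count does not show interactions beyond the called ones. In the same fit, ESC-PGCLCs differed from ESCs at 19923 features (14.6%), 18693 of them higher in PGCLCs, and pESC-PGCLCs from pESCs at 13219 (9.66%), 12198 of them higher. With each library centred on its median, which moves the log2 odds by 1.17 for ESCs and 0.92 for pESCs, these counts were 12916 (9376 higher, 3540 lower) and 11216 (7978 higher, 3238 lower), while the interaction shifted by -0.25 and had 39 calls (22 positive, 17 negative). pESCs differed from ESCs at 55 features (0.0402%) and pESC-PGCLCs from ESC-PGCLCs at 51 (0.0373%). The first count was 31 with untransformed levels, 18 without pESC replicate 1, 35 without pESC replicate 2, 31 without any 1 of the PGCLC libraries, and 45 and 41 without ESC replicates 1 and 2. The second was 16 with an offset of 0.1, 2 with untransformed levels, 321 without ESC-PGCLC replicate 1, 12 without pESC-PGCLC replicate 1 and 24 without pESC-PGCLC replicate 2, and between 34 and 52 without any of the others. These comparisons share libraries with the interaction.

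The count of 50 depended on the replicate pairing and on single libraries. Deviations of same-numbered libraries correlated at 0.508 in stem cells, though nothing says that a number marks a shared culture. With the replicate number as a block term for each stage the count was 0 (smallest limma adjusted p 0.121), so none of the calls described below was kept. With 1 block term over the 8 libraries, added after seeing the data, the count was 36. With 1 library left out, where the lone library of a group is assumed to vary like the other groups, it was 21 without ESC replicate 1, 17 without ESC replicate 2, 0 without pESC replicate 1 (5122 features at an unadjusted p under 0.05), 0 without pESC replicate 2 (4795), 161 without ESC-PGCLC replicate 1, 5 without ESC-PGCLC replicate 2, 0 without pESC-PGCLC replicate 1 (2796) and 4 without pESC-PGCLC replicate 2. The interaction of the 21 negative features with a position stayed negative in every one of these, between -19.8 and -48.9 points. These features were selected for a large interaction in the same libraries, so the kept sign is no separate support.

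The 25 negative and 25 positive calls had different shapes. Of the negative calls, 20 had a gap of at least 10 points between origins in stem cells and not in PGCLCs. Of the positive calls, 20 had such a gap in PGCLCs and not in stem cells. Among all features with a negative interaction of 10 points or more, 9.09% had the gap in stem cells only and 47.4% in PGCLCs only. Among those with a positive interaction of 10 points or more these shares were 20.8% and 42.9%. Neither stage had a gap of 10 points in 40.7% of the negative and 31.3% of the positive ones, where smaller gaps of opposite sign added up.

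**Figure D2:**
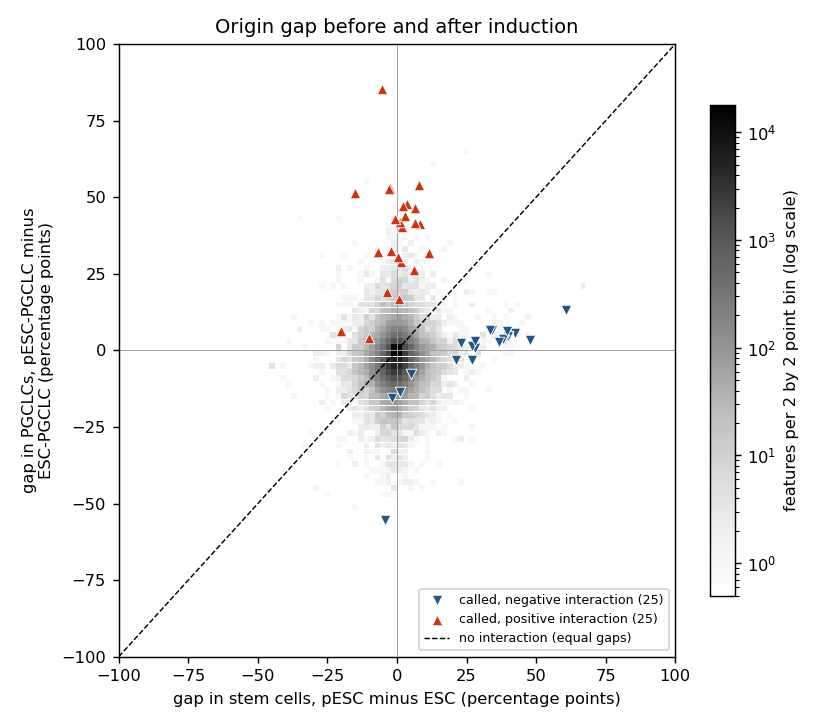
Gap between origins in stem cells (x, pESC minus ESC) against the gap in PGCLCs (y, pESC-PGCLC minus ESC-PGCLC), in percentage points, with grey squares for the number of features per bin (log scale) and triangles for the 50 called features. The 25 negative calls (blue) lie mostly to the right along the x axis and the 25 positive calls (red) mostly upward along the y axis, while the dashed line marks equal gaps.

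The negative calls were concentrated at imprinted genes. All 21 with a position belonged to 6 loci, on chromosomes 6, 10, 11 and 17, each an oocyte-methylated imprinted locus, and the other 4 were repeats. Over the 25, the median level was 2.05% in ESCs, 38.8% in pESCs, 35.1% in ESC-PGCLCs and 39.1% in pESC-PGCLCs. In 20 of the 25 both ESC libraries were at 5% or below. The same features had medians of 52.9% in E9.5 PGCs and 30.5% in E12.5 PGCs, so the PGCLCs of both origins stood between the embryonic stages. Overlapping features at a locus share reads and are not independent.

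The largest with a position was the CpG island that overlaps Airn, a noncoding RNA that silences its neighbours on the paternal copy, and Igf2r, the receptor that clears insulin-like growth factor 2 (chr17:12741441-12742489). Its level was 1.91% and 2.20% in the ESC libraries and 61.7% and 64.2% in the pESC libraries. It was 45.1% and 45.3% in the ESC-PGCLC libraries and 58.0% and 59.1% in the pESC-PGCLC libraries. Both ESC libraries lay far below all others, and the pESC-PGCLCs stayed above the ESC-PGCLCs with no overlap. The gap of 60.9 points in stem cells fell to 13.3 points in PGCLCs. The interaction was -47.6 points (-5.01 ± 0.27 on the log2 odds scale, limma adjusted p = 0.00721). E9.5 PGCs were at 60.7% and 66.3%, and E12.5 PGCs at 42.2% and 41.4%, close to the ESC-PGCLCs.

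Mest codes for a hydrolase that is expressed from the paternal copy. The shore inside it (chr6:30738499-30740500) was at 7.08% and 5.11% in ESCs, 54.3% and 53.6% in pESCs, 39.2% and 41.6% in the ESC-PGCLC libraries and 48.3% and 39.3% in the pESC-PGCLC libraries. The ESCs were again alone at the bottom, and the PGCLCs of the 2 origins overlapped. The interaction was -44.5 points (-3.78 ± 0.36 log2 odds, limma adjusted p = 0.0376). The Mest promoter moved alike, from 6.73% and 6.76% in ESCs to 34.5% and 36.7% in ESC-PGCLCs, and from 47.6% and 44.7% in pESCs to 45.2% and 38.7% in pESC-PGCLCs. Its interaction was -33.1 points (limma adjusted p = 0.0488), just inside the threshold.

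The locus of Zrsr1, a splicing factor gene that sits inside the gene Commd1 and is expressed from the paternal copy, gave 10 of the calls. They were the island (chr11:22971975-22972993), 3 shores, the promoter, exon and 5' UTR of Zrsr1, the intron and promoter of Commd1 and the intron of the overlapping gene model Gm28048. The Zrsr1 promoter was at 1.65% and 1.91% in ESCs and at 40.3% and 40.1% in pESCs. It was at 32.8% and 33.9% in the ESC-PGCLC libraries and at 37.0% and 36.6% in the pESC-PGCLC libraries. At this promoter the order ESC, ESC-PGCLC, pESC-PGCLC, pESC held without overlap. Its interaction was -34.9 points (-4.38 ± 0.26 log2 odds, limma adjusted p = 0.00721).

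The other Zrsr1 and Commd1 features ranged from -20.4 points (Gm28048 intron) to -36.5 points (the shore at chr11:22973331-22975332). The Commd1 promoter rose from 1.59% and 1.76% in ESCs to 23.9% and 24.1% in ESC-PGCLCs. From pESCs it was at 31.4% and 28.3% before and 27.6% and 26.6% after, and the interaction was -25.1 points (limma adjusted p = 0.0173). COMMD1 acts in copper handling and endosomal sorting.

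Plagl1, which codes for a zinc finger transcription factor that restrains growth, had 4 called features, with the island (chr10:13090533-13091299), intron, exon and 5' UTR. The island was at 1.33% and 1.96% in ESCs, 29.0% and 28.1% in pESCs, 39.4% and 38.4% in the ESC-PGCLC libraries and 40.2% and 40.6% in the pESC-PGCLC libraries. Here both origins gained, by 37.2 points from ESCs and by 11.8 points from pESCs, and the PGCLC libraries of the origins stood close together, between 38.4% and 40.6%. The interaction was -25.4 points (-3.86 ± 0.29 log2 odds, limma adjusted p = 0.0201). The Plagl1 promoter, at -17.2 points, fell just outside the threshold (limma adjusted p = 0.0552).

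The island between Sgce, which codes for epsilon-sarcoglycan, and Peg10, a gene derived from a retrotransposon and needed for the placenta, was at chr6:4747209-4748412. It was at 3.25% and 3.36% in ESCs, 39.3% and 35.4% in pESCs, 36.6% and 33.6% in the ESC-PGCLC libraries and 42.7% and 40.8% in the pESC-PGCLC libraries. The promoter of Sgce had these same values in every library, so both are 1 measurement. The interaction was -27.4 points (limma adjusted p = 0.0266), and that of the Peg10 promoter was -26.6 points (limma adjusted p = 0.0279). PGCLCs of parthenogenetic origin stayed above those of biparental origin in both libraries.

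The Grb10 island (chr11:12025555-12026580), in the gene of an adaptor that dampens insulin receptor signalling, was at 1.74% and 2.10% in ESCs and at 20.4% and 25.8% in pESCs. It was at 41.7% and 43.0% in the ESC-PGCLC libraries and at 36.4% and 41.8% in the pESC-PGCLC libraries. The pESCs started lower here than at the other 5 loci, and both origins gained, by 40.4 and 16.0 points. The interaction was -24.4 points (-3.58 ± 0.33 log2 odds, limma adjusted p = 0.0351).

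**Figure D3:**
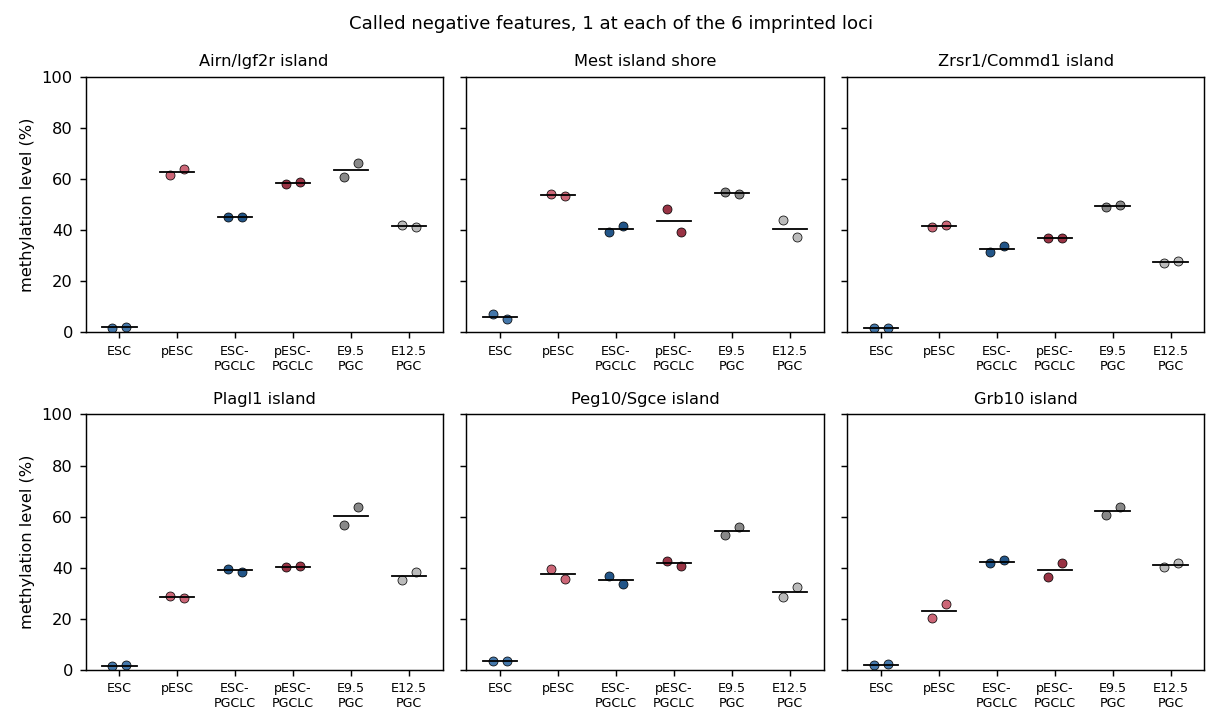
Methylation level in percent (y) by group (x) for 1 called feature at each of the 6 loci with a negative interaction, with a point for each library and a line for the group mean. ESC libraries lie between 1.33% and 7.08% in all 6 panels, and the PGCLC libraries of both origins between 31.5% and 59.1%.

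Promoters of imprinted genes were then read as lists. Of 33 oocyte-methylated genes listed, 21 promoters had a level in all 8 libraries. Of these, 5 were called (Zrsr1, Mest, Sgce, Peg10 and Commd1), all negative, 15 had an unadjusted p under 0.05 in limma, and 20 of 21 were below 0. Among all promoters, 456 of 18812 had such a p and 65.1% were below 0. Some of the 21 share a locus, such as Sgce with Peg10 and Zrsr1 with Commd1, and are not independent. The count of 5 fell to 1 with an offset of 0.1 or untransformed levels and to 0 with the replicate number as a block. It was 2 without ESC-PGCLC replicate 1, 1 without either ESC library and 0 without any other library. Their median interaction was -12.0 points, compared with -0.385 points over all 18812 promoters, of which 7 were called. On the log2 odds scale the median was -1.14, and -0.89 relative to the shift of the library medians, so its sign held under that scaling, while that of all promoters turned from -0.11 to 0.14. The list was drawn up with earlier results of these data known, so its counts are a description.

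Over the 21 promoters the mean level was 12.3% and 11.8% in the ESC libraries and 29.6% and 29.8% in the pESC libraries. It was 31.8% and 31.7% in the ESC-PGCLC libraries and 33.8% and 34.1% in the pESC-PGCLC libraries. The ESCs stood apart from the other groups, which were close to each other but did not overlap. The means of the 2 ESC libraries were close together here, although those over all features differed by 4.70 points. Single promoters differed between the ESC libraries in either direction, such as Nnat (43.0% and 27.1%) and Snrpn (34.5% and 44.8%). Such differences offset each other in the mean, so its SE does not describe single promoters. The mean interaction was -15.4 ± 0.250 points (SE), between -15.7 and -15.2 when any 1 library was left out. The exact permutation p was 0.333, because reassigning PGCLC labels alone leaves the large stem cell gap in place.

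In a cell with a pair of maternal copies, a region with a maternal imprint kept on both would be near 100%, and in biparental cells near the middle. Not every listed promoter is such a region, that of Igf2r for instance, so this does not hold for all of them. The promoters of Trappc9 and Kcnq1 were low in E9.5 PGCs as well, at 3.18% and 6.14%. Most of these promoters were at neither level in either stem cell type. The pESC level ranged from 2.41% to 83.0% over the 21 promoters, with a median of 23.7%, and the ESC level from 1.05% to 39.6%, with a median of 6.74%. After induction the range was 3.37% to 52.6% from ESCs and 2.82% to 68.1% from pESCs, with medians of 33.3% and 36.8%. The SD over promoters was 14.5 points in ESC-PGCLCs and 17.5 points in pESC-PGCLCs, against 12.7 and 23.4 points in ESCs and pESCs.

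Snrpn, the gene of a splicing protein in the Prader-Willi region, kept the highest level. Its promoter was at 34.5% and 44.8% in ESCs, 82.8% and 83.2% in pESCs, 48.5% and 56.7% in the ESC-PGCLC libraries and 66.2% and 69.99% in the pESC-PGCLC libraries. It is 1 of the promoters where the parthenogenetic cells lost methylation on induction while the biparental cells gained it. The interaction of -27.9 points was not called (limma adjusted p = 0.836), and the ESC replicates were further apart than those of pESCs. Snurf, which shares the transcript with Snrpn, had an interaction of -28.1 points (limma adjusted p = 0.712).

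Nap1l5, a nucleosome assembly gene within an intron of Herc3, was at 22.6% and 26.0% in ESCs, 56.3% and 54.8% in pESCs, 47.6% and 44.0% in the ESC-PGCLC libraries and 48.7% and 46.3% in the pESC-PGCLC libraries. The PGCLCs of both origins overlapped, and the interaction was -29.6 points (limma adjusted p = 0.341). Inpp5f, a phosphoinositide phosphatase gene, was at 30.6% and 28.1% in ESCs and 48.7% and 51.0% in pESCs, and all 4 PGCLC libraries were between 44.1% and 48.3%. Its interaction was -18.3 points (limma adjusted p = 1).

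At a further group of promoters both stem cell types started low, so the interaction was small although induction changed the level. Mcts2, a retrogene, was at 1.66% and 3.76% in ESCs, 6.13% and 3.76% in pESCs, 43.9% and 43.3% in the ESC-PGCLC libraries and 35.7% and 38.1% in the pESC-PGCLC libraries, an interaction of -8.95 points. Gnas, the gene of a stimulatory G protein subunit, was at 5.50% and 3.901% in ESCs and 8.20% and 9.63% in pESCs, and all PGCLC libraries were between 29.4% and 33.95%. The antisense gene Nespas of the same domain behaved alike, with an interaction of -4.80 points. These promoters had unadjusted p-values of 0.0471, 0.0266 and 0.0338 and adjusted p-values of 1 in limma.

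The Grb10 promoter (-4.74 points) and the Igf2r promoter (-4.11 points) were not called, although the islands described above were. The Igf2r promoter was at 13.2% and 9.50% in ESCs, 10.1% and 15.01% in pESCs, 13.4% and 15.8% in the ESC-PGCLC libraries and 11.4% and 11.98% in the pESC-PGCLC libraries, so its groups overlapped. This promoter is not the imprinting control region of the gene. Nnat, Blcap, Herc3, Slc38a4, Trappc9 and Kcnq1 ranged from -12.0 (Blcap) to 0.811 points (Kcnq1).

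**Figure D4:**
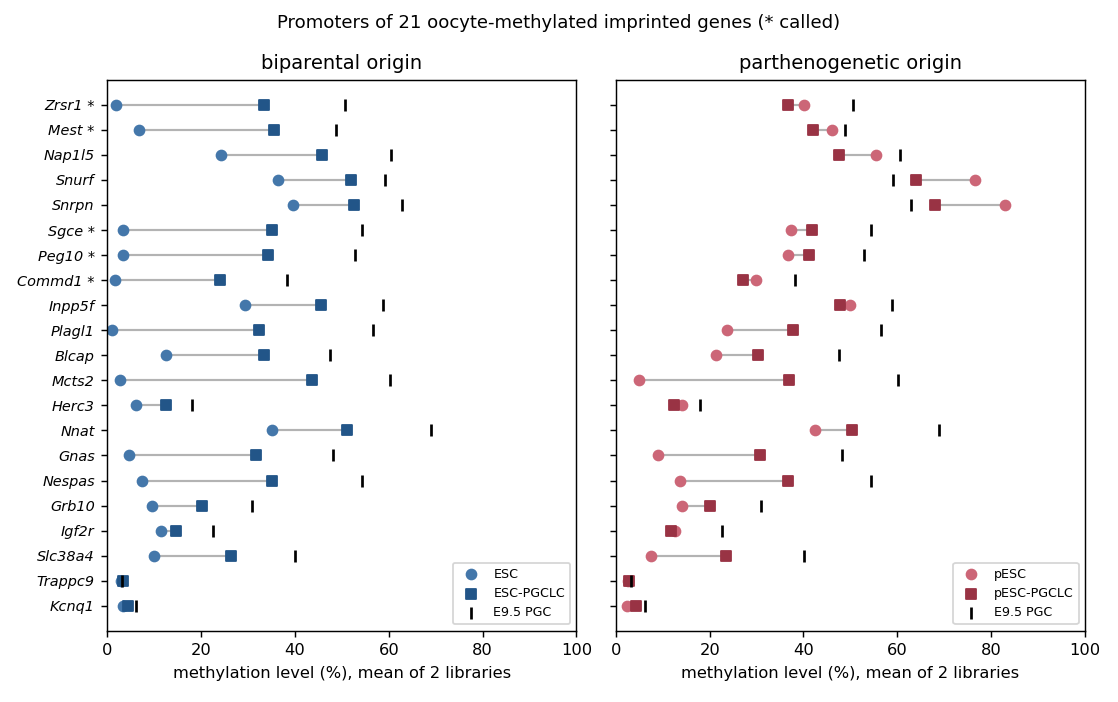
Group mean methylation level in percent (x) of the 21 oocyte-methylated imprinted promoters (y, sorted by interaction), for the biparental origin (left, ESC circles and ESC-PGCLC squares) and the parthenogenetic origin (right, pESC circles and pESC-PGCLC squares), with a black tick for E9.5 PGCs and an asterisk for a called promoter. ESC means start between 1.05% and 39.6% and move right, whereas pESC means of Snrpn, Snurf and Nap1l5 move left.

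Of 8 sperm-methylated genes listed, 6 promoters were tested and 0 were called by limma, with 0 at an unadjusted p under 0.05. Their median interaction was 0.815 points. H19, the noncoding RNA of the Igf2 domain, was at 60.3% and 61.6% in ESCs, 52.6% and 39.9% in pESCs, 56.2% and 57.6% in the ESC-PGCLC libraries and 55.2% and 47.8% in the pESC-PGCLC libraries. It was lower in the parthenogenetic libraries of both stages without overlap, and the interaction was 9.28 points (limma unadjusted p = 0.227, adjusted p = 1). Meg3, the noncoding RNA of the Dlk1 domain, had an interaction of 6.62 points. The promoters of Igf2, Dlk1, Rasgrf1 and Zdbf2 were at 5.78% or below in every one of the 8 libraries, with interactions between -0.210 and 0.864 points.

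The positive calls were of another kind. Their median level was 34.2% in ESCs, 39.0% in pESCs, 0% in ESC-PGCLCs and 41.6% in pESC-PGCLCs, with medians of 51.7% in E9.5 PGCs and 38.2% in E12.5 PGCs. In 21 of the 25 both ESC-PGCLC libraries were at 5% or below, and in 14 both were listed at 0, with an unknown number of reads behind these levels. The 17 with a position lay at 16 loci, and the other 8 were repeats. Calls of this kind were mostly not shared by neighbours. Neighbours of a gene part were other parts of the gene and islands and shores in or near it. Those of an island or shore were only other islands and shores close by, so 4 negative calls had none. Of the 17 positive calls with a position, 2 had a called neighbour (the exon and 5' UTR of Rnf13, with identical values). Of the 21 negative ones, 16 did. The median over the positive calls of the neighbours' median interaction was -0.0817 points, compared with -34.1 points for the negative ones. Many of the negative calls overlap and share reads, 10 of them at the Zrsr1 locus, so their agreement with neighbours is not independent.

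The exon of the predicted gene Gm29233 (chr2:118123451-118124047) had the largest called interaction outside repeats. It was at 54.9% and 36.5% in ESCs, 37.2% and 24.4% in pESCs, 0% and 0% in the ESC-PGCLC libraries and 60% and 42.9% in the pESC-PGCLC libraries. The ESC-PGCLCs alone were at 0, and E9.5 and E12.5 PGCs were between 43.2% and 62.5%. The interaction was 66.4 points (7.66 ± 0.67 log2 odds, limma adjusted p = 0.0294). The 1 neighbour of this exon was at -7.48 points.

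The intron of Scgn, the gene of secretagogin, a calcium sensor of secretory cells (chr13:23953456-23991214), was at 60.3% and 34.8% in ESCs, 48.1% and 41.9% in pESCs, 0% and 0% in the ESC-PGCLC libraries and 53.7% and 52.1% in the pESC-PGCLC libraries. The interaction was 55.5 points (limma adjusted p = 0.0300). The intron of Aifm1, a mitochondrial flavoprotein gene on the X chromosome (chrX:48474944-48513563), was at 36.8% and 30.6% in ESCs, 41.6% and 41.8% in pESCs, 2.47% and 4.76% in the ESC-PGCLC libraries and 56.8% and 58.6% in the pESC-PGCLC libraries. In both introns the ESC-PGCLCs lay below all other libraries, and the Aifm1 interaction was 46.1 points (limma adjusted p = 0.0352).

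The intron of Cryzl2, a quinone reductase-like gene, was at 34.1% and 26.3% in ESCs, 31.9% and 32.8% in pESCs, 7.14% and 7.02% in the ESC-PGCLC libraries and 55.2% and 53.3% in the pESC-PGCLC libraries. It fell on induction from ESCs and rose from pESCs, with an interaction of 45.005 points (limma adjusted p = 0.0300). The promoter of Unc119, the gene of a chaperone for lipid-modified proteins, was at 45.9% and 39.2% in ESCs, 45.03% and 45.5% in pESCs, 2.75% and 2.48% in the ESC-PGCLC libraries and 44.9% and 48.2% in the pESC-PGCLC libraries. Only the ESC-PGCLCs stood apart among the 8 libraries, with an interaction of 41.2 points (4.41 ± 0.31 log2 odds, limma adjusted p = 0.0142).

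The promoter of Rasgef1a, a guanine nucleotide exchange factor gene, was at 34.4% and 19.5% in ESCs, 31.6% and 24.3% in pESCs, 0% and 0% in the ESC-PGCLC libraries and 47.0% and 37.0% in the pESC-PGCLC libraries, an interaction of 41.0 points (limma adjusted p = 0.0318). A shore inside Ptprs, a receptor tyrosine phosphatase gene (chr17:56462513-56464514), was at 39.8% and 34.8% in ESCs, 32.1% and 38.3% in pESCs, 0% and 0% in the ESC-PGCLC libraries and 35.3% and 29.3% in the pESC-PGCLC libraries. This shore had the smallest adjusted p of the positive features with a position (34.4 points, limma adjusted p = 0.00721). The 3' UTR of Hoxd3, a homeobox gene of trunk patterning, was at 0% in both ESC-PGCLC libraries, between 43.9% and 60.7% in the stem cells, and at 10% and 10.5% in E9.5 PGCs, an interaction of 38.9 points (limma adjusted p = 0.0359).

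The remaining 9 positive features with a position were smaller or alike. The exon of AC174800.1 (39.9 points) was at 0 in both ESC-PGCLC libraries, and the intron of Tomm70a (38.7), the intron of Rwdd4a (29.99), the exon of Mier3 (27.2), the exon of Ankrd40 (22.9) and the exon of Adamts16 (20.1) were between 0.917% and 3.56% there. The exon and 5' UTR of Rnf13 (26.5 points) and the 5' UTR of Zbtb37 (14.1 points) differed from these, because there the pESCs were listed at 0. Zbtb37 was at 9.46% and 10.3% in ESCs, 0% and 0% in pESCs, 7.69% and 5.36% in the ESC-PGCLC libraries and 11.4% and 10% in the pESC-PGCLC libraries.

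**Figure D5:**
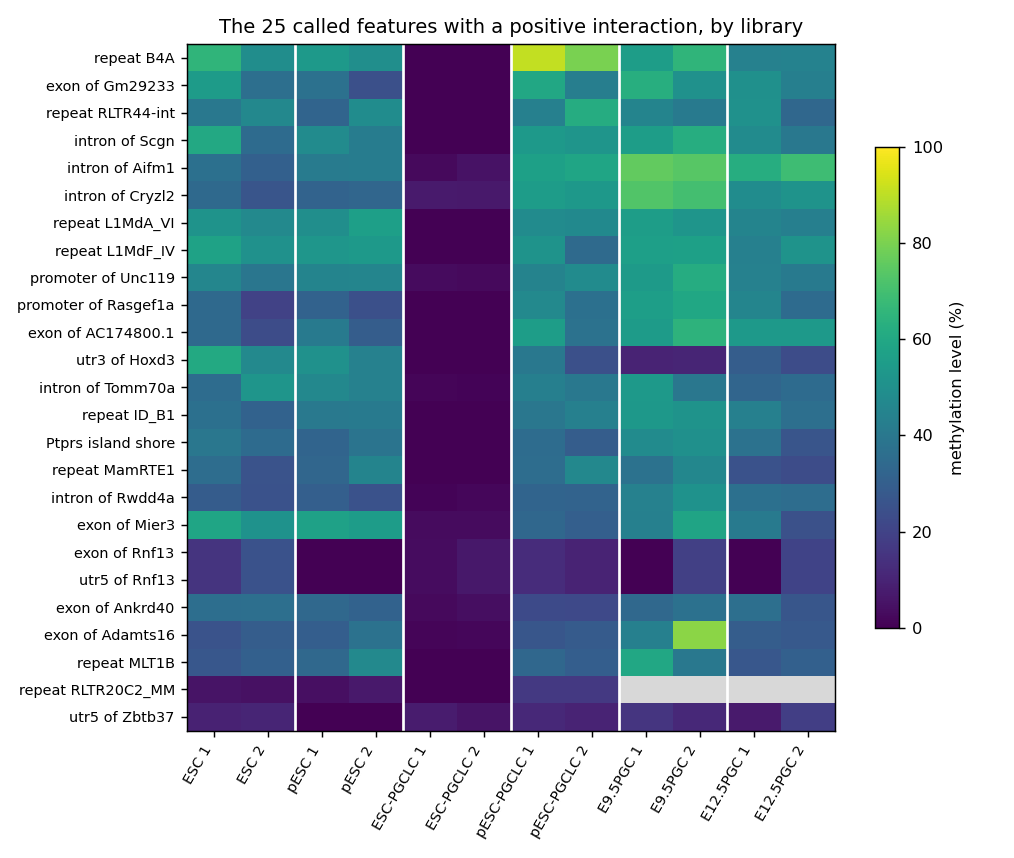
Methylation level in percent (colour, 0 to 100) of the 25 called features with a positive interaction (rows, largest at the top) in the 12 libraries (columns), with grey for no level. The ESC-PGCLC columns are dark, at or near 0, in most rows, while the stem cell, pESC-PGCLC and PGC columns are not.

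How often 1 group stood alone near 0 was counted over all features, with limits set after the values were seen. Features with both libraries of a group at 5% or below and the other 6 of the 8 libraries at 20% or above numbered 22 for ESCs, of which 19 were called, and 23 for ESC-PGCLCs, of which 19 were called and 8 were repeats. They numbered 0 for pESCs and 0 for pESC-PGCLCs. Both libraries at exactly 0 occurred at 137 features in ESCs, 246 in pESCs, 138 in ESC-PGCLCs and 148 in pESC-PGCLCs. With an offset of 0.1 on the log2 odds scale, or with untransformed levels, limma called 0 positive features and 10 or 15 negative ones (6017 and 7482 features at an unadjusted p under 0.05), so no positive call was made on these scales, which give less weight to differences near 0.

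Repeats, most of which are old transposon copies, had 12 calls among 36654 consensus segments, 8 positive and 4 negative, a share close to the 0.0365% over all features. There was 1 call with an offset of 0.1 and 1 with untransformed levels. There were 114 without ESC-PGCLC replicate 1, 5 without ESC-PGCLC replicate 2, 4 without either ESC library or pESC-PGCLC replicate 2, and 0 without either pESC library or pESC-PGCLC replicate 1. The segment 94 to 149 of B4A, a SINE, was at 65.3% and 49.0% in ESCs, 54.1% and 49.3% in pESCs, 0% and 0% in the ESC-PGCLC libraries and 90.9% and 80% in the pESC-PGCLC libraries, the largest called interaction, at 90.9 points (limma adjusted p = 0.0126). RLTR44-int, an ERVK element, was also at 0 in both ESC-PGCLC libraries (55.5 points). So was 1 consensus segment in each of 2 LINE-1 families, L1MdA_VI from 6257 to 6576 (44.2 points) and L1MdF_IV from 6254 to 6575 (43.8 points). In these segments the other 6 libraries lay between 34.7% and 57.8%. Over all LINE-1 segments the mean in ESC-PGCLCs was 56.3%, so these values do not describe the families.

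Another segment of L1MdF_IV, from 411 to 527, went the other way. It was at 43.7% and 46.1% in ESCs, 42.0% and 39.1% in pESCs, 100% and 100% in the ESC-PGCLC libraries and 42.9% and 46.2% in the pESC-PGCLC libraries. With -51.2 points it had the largest called negative interaction and the smallest adjusted p of all features (-6.72 ± 0.28 log2 odds, limma adjusted p = 0.00487). The other negative repeats were segments of MLT1A0 (-14.6 points), Tigger5b_Glire (-13.7 points) and B4 (-12.9 points). MLT1A0 rose from both origins, to 100% in both ESC-PGCLC libraries and to 87.5% and 85.2% in pESC-PGCLCs.

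As families, repeats had negative medians throughout on the level scale. The median interaction was -2.71 points in 17815 LINE-1 segments, -2.32 in 760 IAP segments, -3.19 in 3561 other ERVK, -3.33 in 1064 ERV1, -3.59 in 3609 ERVL and MaLR, and -3.68 in 7501 SINEs, beside -3.01 over all repeats. IAP elements, young retroviruses known to resist erasure in germ cells, were at 68.5% in ESCs and 67.7% in pESCs and at 70.6% and 67.5% in the PGCLCs. Their change on induction was 2.10 points from ESCs and -0.150 points from pESCs, and the interaction of -2.25 ± 3.23 points (SE) was within the spread between libraries. Relative to the shift of the library medians, the log2 odds medians were above 0, at 0.09 for LINE-1, 0.10 for IAP and 0.01 for SINE elements.

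X-linked CpG islands gained on induction from either origin. The 350 islands had means of 4.23% in ESCs, 4.08% in pESCs, 17.4% in ESC-PGCLCs and, from pESCs, 16.2% after induction. The gain was 13.2 and 12.1 points, compared with 2.01 and 1.62 points at 13479 autosomal islands. The interaction was -1.04 ± 0.363 points (SE) on the X and -0.384 ± 0.239 on autosomes (exact permutation p = 0.222 for each), and no X-linked island was called. Without 1 library in turn the X value stayed between -1.35 and -0.739 points.

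The 7 other gene lists had 0 called promoters in limma, with 1 at an unadjusted p under 0.05, that of Mbd2, a reader of methylated DNA. Over all 18812 promoters, 7 were called and 456 had such a p, so these counts do not stand out from the background. The medians were -4.37 points for 16 germline genes, -8.01 for 7 PGC genes, -4.45 for 8 Xlr and Rhox genes, -1.45 for 15 pluripotency genes, -0.728 for 21 genes of the methylation machinery, -0.204 for 9 epiblast genes and -0.298 for 12 somatic and fibroblast genes, beside -0.385 over all promoters. The lists with lower medians are also those with higher levels in E9.5 PGCs, at medians of 72.6%, 48.7% and 75.8% for the first 3. Relative to the shift of the library medians, the log2 odds medians of these 3 were -0.05, -0.33 and 0.00033, and those of the methylation machinery, epiblast and somatic lists were above 0.

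Among germ cell genes, the promoter of Dppa3, which codes for a protein of early germ cells and oocytes, was at 2.55% and 3.61% in ESCs and 1.85% and 3.33% in pESCs. It was at 39.5% and 40.1% in the ESC-PGCLC libraries and at 28.1% and 24.8% in the pESC-PGCLC libraries. The PGCLCs of the 2 origins did not overlap, but the interaction of -12.9 points was not called (limma adjusted p = 1). Rhox6, a homeobox gene of the X chromosome, was at -16.4 points and the X-linked Xlr4a at -14.5 points. Tdrd9, a helicase gene of the piRNA pathway, was at 8.33% and 56.9% in ESCs and at 61.8% and 8.33% in ESC-PGCLCs, so its value of -22.8 points rests on replicates that disagree. Fkbp6, a meiotic chaperone gene, was at -11.0 points.

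Of pluripotency genes, the promoter of Zfp42, which codes for REX1, was at 1.86% and 2.58% in ESCs, 1.22% and 1.74% in pESCs, 41.1% and 37.4% in the ESC-PGCLC libraries and 27.7% and 30.2% in the pESC-PGCLC libraries, an interaction of -9.62 points. Dppa5a, an RNA-binding protein gene, was at -8.08 points. Both rose from either origin, and the pESC-PGCLC libraries were lower than the ESC-PGCLC libraries. Of the methylation machinery, Ehmt1, a histone H3 lysine 9 methyltransferase gene, was at -14.3 points and the de novo methyltransferase gene Dnmt3a at -8.74 points. The epiblast genes Lefty1 and Sox3 were at -1.69 and 2.39 points, and the collagen genes Col1a1 and Col1a2, markers of fibroblast feeders, at -3.55 and 4.31 points, none of them past the test.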

How the data were processed

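RRBS libraries of 4 cell groups and of E9.5 and E12.5 PGCs were used, 2 of each. The authors aligned the reads to mm10 with Bismark 0.16.3 and Bowtie2, retained uniquely best-aligned reads, regarded matching reads at 1 place as duplicates, and adjusted each level for bisulfite non-conversion. The deposited files give each feature's level as a fraction between 0 and 1, without counts, so depth is unknown and no count test or interval was possible. Levels of exactly 0 or 1 may rest on few reads.

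Levels of the 8 libraries were turned into log2((level + 0.01) / (1 - level + 0.01)) and fitted with limma 3.58.1 in R 4.3.3, with 1 mean per group and Benjamini-Hochberg adjustment over 136848 features. Tests of single means permuted origin labels exactly within stem cells and within PGCLCs. Gene identifiers were matched to GENCODE M21 (30041 of 30073), and sequence was read from GRCm38. Islands fell on this build: 99.99% of them had an observed to expected CpG ratio above 0.6, and 2.32% did after a shift of 100000 bases. On simulated data with 20000 features, of which 200 were shifted, the fit called 159 of those shifted by 4 log2 odds units with 9 false calls. It called 30 of those shifted by 2 with 1 false call, and 0 where none was shifted. The shifted features were drawn from those of middle level, with normal noise of the same spread in all groups. The simulation held fewer features than the 136848 tested. Thus it does not show how the fit performs where 1 group is near 0, as in most calls.

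The comparison, the gene lists and the named features were chosen with earlier results of these data known. Named are the 12 largest called features with a position and the 4 largest called repeats in each direction, every called imprinted promoter with the main uncalled ones, and the 2 promoters with the largest interaction of each other list. Other features named were chosen after their values were seen.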

Additional observations from a re-analysis of the deposited data

Results flagged for a closer look

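Each result here was singled out because the change on induction differed between the origins by a test of that difference itself, the interaction term in limma. There were 25 negative and 25 positive calls of this kind. Negative values were found at the Airn island (-47.6 points), the Mest shore (-44.5) and promoter (-33.1), the Plagl1 intron (-30.1), and the promoters of Sgce (-27.4), Peg10 (-26.6) and Commd1 (-25.1). At the Zrsr1 locus they were -36.5, -35.7 and -33.8 points in 3 shores, -35.5 in the island and in the exon, -34.9 in the promoter, -34.6 in the 5' UTR and -34.3 in the Commd1 intron. Of repeats, L1MdF_IV from 411 to 527 was at -51.2, MLT1A0 at -14.6, Tigger5b_Glire at -13.7 and B4 at -12.9 points.

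Positive values were found in the exons of Gm29233 (66.4 points), AC174800.1 (39.9) and Mier3 (27.2), in the introns of Scgn (55.5), Aifm1 (46.1), Cryzl2 (45.005), Tomm70a (38.7) and Rwdd4a (29.99), in the promoters of Unc119 (41.2) and Rasgef1a (41.0), in the 3' UTR of Hoxd3 (38.9) and in the Ptprs shore (34.4). Of repeats, B4A was at 90.9, RLTR44-int at 55.5, L1MdA_VI at 44.2 and L1MdF_IV from 6254 to 6575 at 43.8 points. In most of these both ESC-PGCLC libraries were at or near 0, and how many reads lay behind those levels is unknown.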

How the results depend on the processing

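The sign of the 50 called interactions held under every alternative tried (RLTR20C2_MM has no PGC level and could not be fitted with all 12 libraries). Only centring and leaving out a library could have changed this sign, because the other alternatives take it from the same group means of levels. The 50 features were selected for a large interaction in these same libraries, so the held sign is no separate support. The number of calls did not hold. With an offset of 0.1 there were 10 calls (0 positive, 10 negative), with untransformed levels 15 (0 and 15), and with all 12 libraries 82 (37 and 45). The labels number the replicates 1 and 2 in each group, but nothing says that a number marks a shared culture or day. The deviations of same-numbered libraries correlated at 0.508 in stem cells and 0.0517 in PGCLCs. With the replicate block, a term for each stage, there were 0 calls (0 positive, 0 negative; 7030 at an unadjusted p under 0.05; smallest adjusted p 0.121), 20 gap calls in stem cells, 26 in PGCLCs, 0 oocyte-methylated promoters and 0 repeats. With 1 block term over the 8 libraries, added after seeing the data, 36 calls and 3 of these promoters were left. Oocyte-methylated promoters called numbered 1 with the offset of 0.1, 1 untransformed and 3 with centred libraries, and called repeats 1 and 1 with the first pair of settings. The gap in stem cells gave 31 calls untransformed, and that in PGCLCs 16 with the offset of 0.1, 2 untransformed and 85 with 12 libraries. Induction calls were 12916 from ESCs with centred libraries, and 12598 from ESCs and 8100 from pESCs with a minimum of 20 points. The 5' UTR median was 0.00594 points, against a negative mean. The cause of these shifts was not tested.

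Leaving out 1 library gave 0 to 161 calls (0 to 89 positive, 0 to 72 negative), 12271 to 35512 induction calls from ESCs and 7482 to 19596 from pESCs, 18 to 45 gap calls in stem cells and 12 to 321 in PGCLCs, 0 to 2 oocyte-methylated promoters and 0 to 114 repeats. The global interaction ranged from -4.43 to 0.270 points. Class values ranged from -0.579 to -0.229 in islands, -3.01 to 0.0753 in shores, -4.53 to -0.123 in exons, -5.39 to -0.208 in introns, -2.91 to -0.103 in promoters, -7.34 to 1.23 in repeats, -9.51 to 1.53 in 3' UTRs and -0.660 to -0.137 in 5' UTRs. X-linked features ranged from -3.78 to -0.434 points and autosomal ones from -3.35 to -0.0712.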
